A study of Arabidopsis thaliana with 6 samples.

Results

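The glycine-rich protein genes AT3G24250 and AT2G32690 (GRP23) were 2 of the 23874 genes with reads in hybrid embryos of Arabidopsis thaliana. They were taken by locus identifier, and they had been picked with their gene reads, ranks and parental allele reads already known. Those values are therefore given as a description, with no test. Poly(A) RNA came from 6 pools of 20 hand-dissected embryos, 1 pool for each of 3 stages and 2 directions of a cross of Col-0 with Cvi-0, which are inbred accessions. The labels name no mutation or transgene. Embryos were taken about 40 h (1-cell/2-cell), 64 h (8-cell) or 78 h (about 32-cell) after pollination of emasculated flowers. The parent named first in a cross is read as the mother. Paired values below give Col-0 x Cvi-0 before its reciprocal. No stage and cross was repeated, so each SD below is over the 2 crosses of a stage (n = 2) and includes any difference between the crosses.

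Glycine-rich proteins of plants are a loose class defined by long stretches rich in glycine, often in repeats of glycine pairs and 1 other residue. Many carry a signal peptide and are secreted to the cell wall, where some have a structural role, while another branch binds RNA. A read that covers a base differing between the accessions shows which allele it came from, and so, where the direction of the cross is known, which parent. Early plant embryos hold RNA inherited from the egg cell as well as RNA made after fertilization.

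AT3G24250 lies on chromosome 3 from 8786689 to 8787391 (plus strand, TAIR10.1), is annotated as a single exon and encodes 137 residues. Glycine made up 38 of them (27.7%), with runs of up to 3, followed by leucine (11.7%). The annotation places the product in the endomembrane system and gives no molecular function. GRP23 lies on chromosome 2 from 13863635 to 13864710 (minus strand) with 5 annotated coding transcripts. The longest, unspliced form encodes 201 residues, of which 115 (57.2%) are glycine, with runs of up to 7. Its annotation describes it as similar in structure to GRP5 and as induced by a cutin monomer, salicylic acid and abscisic acid.

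The glycine repeat of each gene is shown by the 50 codons of the coding strand with the most glycine codons, which are in capitals. They come from the RefSeq genome sequence, build TAIR10.1, at chr3:8786998-8787147 on the plus strand (codons 79 to 128) and chr2:13864201-13864350 on the minus strand (codons 64 to 113).
AT3G24250: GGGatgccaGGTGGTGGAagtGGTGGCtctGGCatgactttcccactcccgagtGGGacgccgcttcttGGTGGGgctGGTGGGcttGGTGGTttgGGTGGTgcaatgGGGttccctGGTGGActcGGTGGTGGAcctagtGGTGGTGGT
AT2G32690: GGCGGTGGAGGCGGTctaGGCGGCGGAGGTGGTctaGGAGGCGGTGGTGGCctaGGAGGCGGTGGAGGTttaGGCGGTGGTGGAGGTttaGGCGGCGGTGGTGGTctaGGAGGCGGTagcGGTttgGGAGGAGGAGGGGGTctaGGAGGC

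Glycine codons were 25 of 50 in AT3G24250, scattered in short runs, and 41 of 50 in GRP23, in runs divided mostly by a single leucine codon. The glycine codon GGT was the most used in both, at 52.6% in AT3G24250 and 40.9% in GRP23. In a global alignment the proteins shared 49 of 119 aligned residues (41.2%), and 36 of these 49 were glycine. The study kept uniquely matching reads. Every 25-base window of the AT3G24250 gene (679 of 679) occurred once in the nuclear chromosomes, as did 1002 of 1052 windows (95.2%) of GRP23. With 40-base windows the share for GRP23 was 98.5%. Read length is not given in the sources used here.

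The libraries held 10299142 to 14805499 reads over genes and 1233554 to 1723728 reads given to an allele. The embryo label was checked against a list of 10 marker genes of embryos. All 10 had reads in each 8-cell and 32-cell library and 9 in each 1-cell/2-cell library, where TMO6 was at 0. Their summed level was 914 to 3976 RPM, the reads of a gene scaled by the authors to a fixed total of mapped reads. PDF1 alone held 3179 RPM of the highest sum (32-cell, Col-0 mother) and 97.4 RPM of the lowest (1-cell/2-cell, Col-0 mother). Of 16 seed coat genes 12 to 16 had reads, with a summed level of 57.6 to 149 RPM and the highest value in the latest embryos with a Cvi-0 mother. The summed levels were 13.0 to 52.9 RPM for 10 endosperm genes and 8.13 to 57.0 RPM for 5 egg cell genes, of which EC1.5 alone exceeded 1 RPM in any library. Fewer cells of a type and less RNA per cell cannot be told apart in such pools.

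AT3G24250 was among the most abundant transcripts of these embryos. Its level in 1-cell/2-cell embryos was 1022 RPM with a Col-0 mother and 2089 RPM with a Cvi-0 mother. Embryos of 8 cells had 5992 and 5484 RPM, and those of about 32 cells 4239 and 7858 RPM, in the same order. The 4 later libraries all lay above both early ones, and the 8-cell and 32-cell values overlapped.

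Its rank by RPM among all genes listed in a library was 118 and 23 in the earliest embryos, then 4 and 2, then 6 and 1 in the latest. In the latest embryos with a Cvi-0 mother it had the highest RPM of 20575 genes, with 130846 reads or 0.884% of all gene reads. Its lowest share was 0.123%, in the earliest embryos with a Col-0 mother. Stage means were 1556 ± 755, 5738 ± 359 and 6049 ± 2559 RPM (SD, n = 2).

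The level of AT3G24250 at the 8-cell stage was 5.86 times that at the 1-cell/2-cell stage with a Col-0 mother and 2.62 times with a Cvi-0 mother. In the model of gene reads over all 6 libraries the log2 change was 2.16 ± 0.38 (SE), and omitting single libraries gave 1.52 to 2.76. The lowest and the highest of these came without the 8-cell libraries with a Col-0 and a Cvi-0 mother, respectively. Omitting an earliest-stage library gave 1.70 (Col-0 mother) and 2.62 (Cvi-0 mother). An RPM increase at least as large in both crosses was seen in 642 of 16950 genes with at least 10 reads in mean (3.79%), AT3G24250 included.

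From the 8-cell to the 32-cell stage the crosses moved in opposite directions. The RPM ratio was 0.708 with a Col-0 mother and 1.43 with a Cvi-0 mother, and the model gave a log2 change of -0.07 ± 0.37 (SE). That value was 0.61 without the 8-cell library with a Col-0 mother and -0.62 without that with a Cvi-0 mother. The libraries of a stage differed 2.04-fold in the earliest embryos and 1.85-fold in the latest, higher in both with a Cvi-0 mother. Of 16950 genes with at least 10 reads in mean, 24.4% and 22.5% differed at least as much between these libraries. Those genes were not matched to AT3G24250 by number of reads, and most had far fewer.

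GRP23 was a weakly represented gene until the 32-cell stage. Levels were 4.87 and 6.72 RPM in 1-cell/2-cell embryos (62 and 86.5 reads) and 5.98 and 7.86 RPM in 8-cell embryos (72.5 and 116.5 reads). By about 32 cells it had 63.2 and 60.5 RPM (1028.5 and 1007 reads). Both 32-cell libraries lay far above the other 4, which overlapped between the first stages. Values such as 86.5 arise since gene reads were deposited in steps of 0.5.

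Its rank moved from 12132 and 11010 in the earliest embryos, through 10258 and 10624, to 2136 and 2466 in the latest. Stage means were 5.80 ± 1.31, 6.92 ± 1.33 and 61.8 ± 1.94 RPM (SD, n = 2). The 32-cell level was 10.6 times the 8-cell level with a Col-0 mother and 7.69 times with a Cvi-0 mother. An increase of at least 7.69 times in both crosses was seen in 125 of 16950 genes (0.737%), GRP23 included. From the first to the last stage 517 genes (3.05%) rose at least as much in both crosses as GRP23, itself included. The log2 changes in the model were 0.40 ± 0.34 (SE) between the first stages and 3.17 ± 0.36 between the later ones, the latter between 2.86 and 3.44 with each library left out. The former was 0.15 without the earliest library with a Col-0 mother and 0.72 without that with a Cvi-0 mother.

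**Figure D1:**
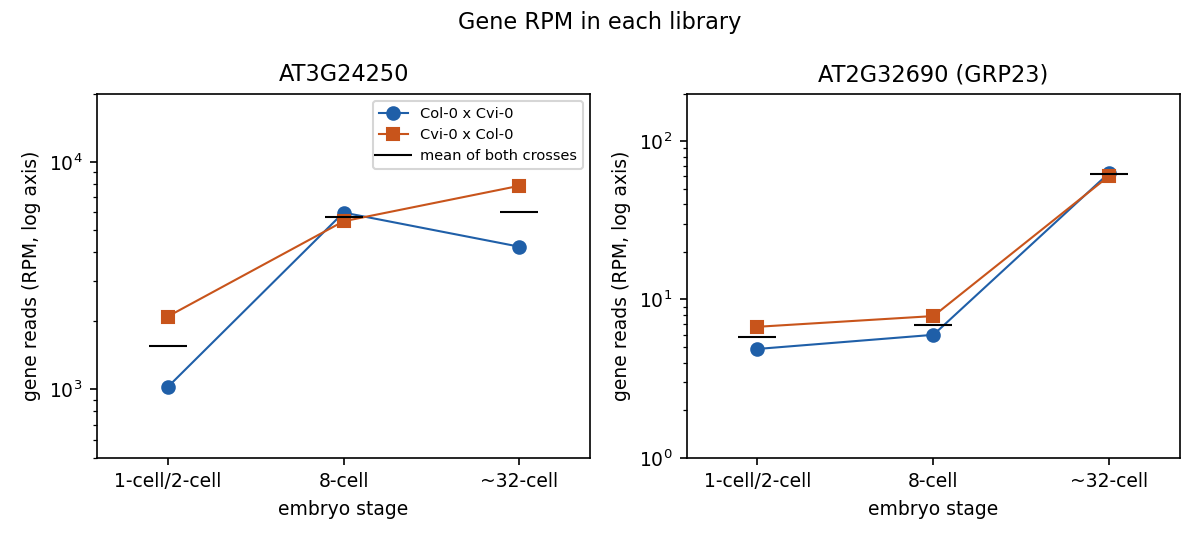
Gene reads of AT3G24250 (left) and GRP23 (right) in RPM on log axes against embryo stage, 1 point per library, coloured by cross, with a bar at the mean of both crosses. AT3G24250 is higher in all 4 later libraries (4239 to 7858 RPM) than in the 1-cell/2-cell ones, and GRP23 is near 5 to 8 RPM until it reaches 60.5 and 63.2 RPM at the 32-cell stage.

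The genes thus took different courses over the stages. Over the 6 libraries Pearson's r of log2(RPM + 0.5) between them was 0.53, a description of 6 points that share their libraries. Per kilobase of annotated gene length, AT3G24250 had 321 and 476 times the RPM of GRP23 in the earliest embryos, 1533 and 1068 times in 8-cell embryos, and 103 and 199 times in the latest.

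At the parental level, AT3G24250 was read more from the Cvi-0 allele in every library, whichever parent had given it. All its allele reads came from a single variant position, which 4.56% to 10.2% of the gene's reads covered, and whose coordinate is not used here. With a Col-0 mother, mother and father had 190 and 671 reads in the earliest embryos, 908 and 2400 in 8-cell embryos, and 1844 and 5206 in the latest. With a Cvi-0 mother they had 1148 and 324, 2912 and 1106, and 5641 and 2313 reads. The larger number belonged to the father in the first cross and to the mother in the second.

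The Cvi-0 share of these reads was 77.9% (95% Clopper-Pearson interval 75.0 to 80.7) and 78.0% (75.8 to 80.1) in the earliest embryos. It was 72.6% (71.0 to 74.1) and 72.5% (71.1 to 73.9) in 8-cell embryos, and 73.8% (72.8 to 74.9) and 70.9% (69.9 to 71.9) in the latest. The reciprocal crosses gave overlapping intervals at the first 2 stages and separate ones at the last. Over all genes the Cvi-0 share was 46.0% to 47.1% in the 6 libraries. These intervals cover counting error alone: RNA was amplified, so reads are not independent molecules.

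The mean of the 2 crosses' log2 ratios of mother to father cancels a constant difference between accessions, and turned back into a maternal share it was 50.04%, 49.95% and 48.2% over the stages for AT3G24250. The allele model gave a log2 ratio of mother to father of -0.03 ± 0.09 (SE) over all stages, and of Col-0 to Cvi-0 of -1.53 ± 0.09, or 0.346 times as many Col-0 reads. At the 1-cell/2-cell stage 40 of 3161 genes (1.27%), counting those where each library held 40 allele reads or more, had a Cvi-0 share as high in both crosses, AT3G24250 included. At the later stages these were 47 of 2911 (1.61%) and 58 of 3375 (1.72%).

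Scaled to RPM, reads of each allele of AT3G24250 were higher at each later stage. The maternal Col-0 allele had 14.9, 75.0 and 113 RPM over the stages and the paternal Cvi-0 allele 52.8, 198 and 320 RPM. In the reciprocal cross the maternal Cvi-0 allele had 89.2, 196 and 339 RPM and the paternal Col-0 allele 25.2, 74.6 and 139 RPM. From the 8-cell to the 32-cell stage all 4 therefore increased 1.51 to 1.86 times, whereas the gene's total in Col-0 x Cvi-0 embryos went to 0.708 times its 8-cell level. In that cross the share of the gene's reads that covered the variant went from 4.56% to 10.2%, and in the reciprocal cross from 4.94% to 6.08%. The part of this shift in coverage was not tested.

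GRP23 was read mostly from the mother at first and nearly evenly from both parents at the 32-cell stage, in both crosses. With a Col-0 mother, mother and father had 46 and 6 reads in the earliest embryos, 33 and 12 in 8-cell embryos, and 254 and 219 in the latest. With a Cvi-0 mother they had 42 and 9, 37 and 16, and 355 and 335 reads. The mother's number exceeded the father's in all 6 libraries, by a wide margin at first and a narrow one at the last stage.

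The maternal share of GRP23 was 88.5% (76.6 to 95.6) and 82.4% (69.1 to 91.6) in the earliest embryos. It was 73.3% (58.1 to 85.4) and 69.8% (55.7 to 81.7) in 8-cell embryos. In the latest it was 53.7% (49.1 to 58.3) and 51.4% (47.6 to 55.2), and both of these intervals include 50%. Intervals of the 1-cell/2-cell and 32-cell stages did not overlap in either cross, while those of the 8-cell stage overlapped the earlier ones in both crosses and the later ones with a Col-0 mother only. Turned back from the mean log2 ratio of the crosses, as for AT3G24250, the share was 85.7%, 71.6% and 52.6%.

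The log2 ratio of mother to father in the allele model was 2.55 ± 0.44 (SE), 1.33 ± 0.41 and 0.15 ± 0.32 at the 3 stages. For Col-0 over Cvi-0 it was 0.13 ± 0.33 over all stages, and it was 0.59 and -0.20 without the 32-cell library with a Col-0 and a Cvi-0 mother, and -0.13 without the earliest one with a Col-0 mother. Maternal shares as high in both crosses were found in 2 of 3161 genes in the earliest embryos, 8 of 2911 in 8-cell embryos (0.275%) and 309 of 3375 in the latest (9.16%), GRP23 included. Such counts place values that were known when the pair was picked, and are no test.

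**Figure D2:**
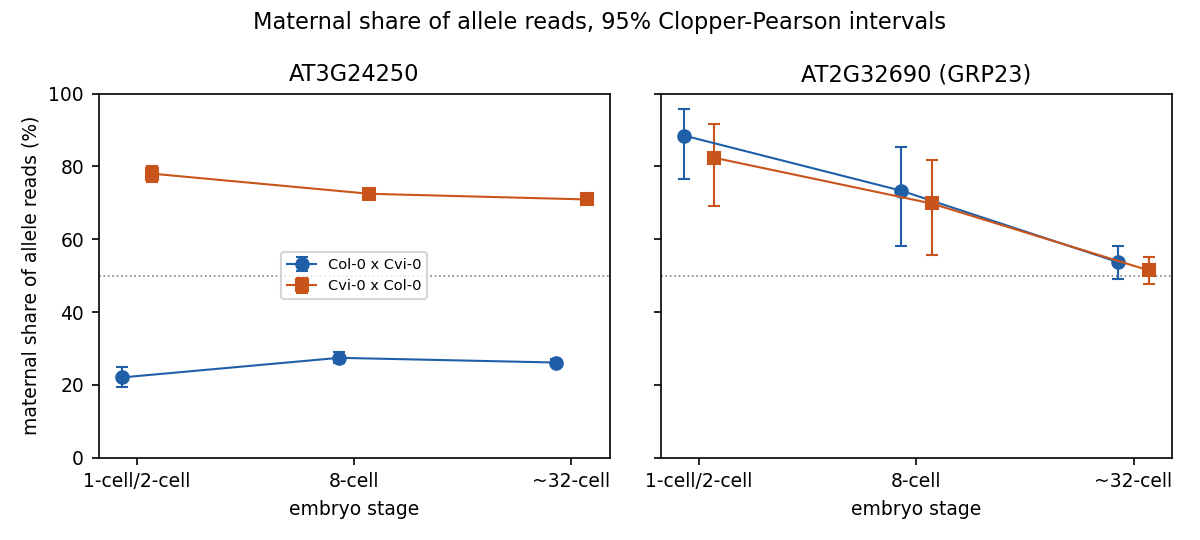
Maternal share of allele reads (%) against embryo stage for AT3G24250 (left) and GRP23 (right), 1 point per library with its 95% Clopper-Pearson interval and a dotted line at 50%. The crosses mirror each other for AT3G24250 (22.1% to 27.4% with a Col-0 mother, 70.9% to 78.0% with a Cvi-0 mother) and run together for GRP23, from 88.5% and 82.4% to 53.7% and 51.4%.

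Split by parent and scaled to RPM, GRP23 gained reads from the father at both steps. Father reads stood at 0.471 and 0.700 RPM, then 0.990 and 1.08 RPM, then 13.5 and 20.1 RPM. Mother reads stood at 3.61 and 3.26 RPM, then 2.72 and 2.50 RPM, then 15.6 and 21.3 RPM. Between the first and the last stage the father's level increased 28.5 and 28.8 times and the mother's 4.32 and 6.53 times. At the 8-cell stage the mother's level was 0.753 and 0.765 times its earlier value, whereas the gene's total was 1.23 and 1.17 times. Allele reads were 83.9%, 62.1% and 46.0% of the gene's reads over the stages with a Col-0 mother. With a Cvi-0 mother they were 59.0%, 45.5% and 68.5%. The part of this shift in coverage in the parental levels was not tested. The father's values rest on 6 to 16 reads per library before the 32-cell stage.

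**Figure D3:**
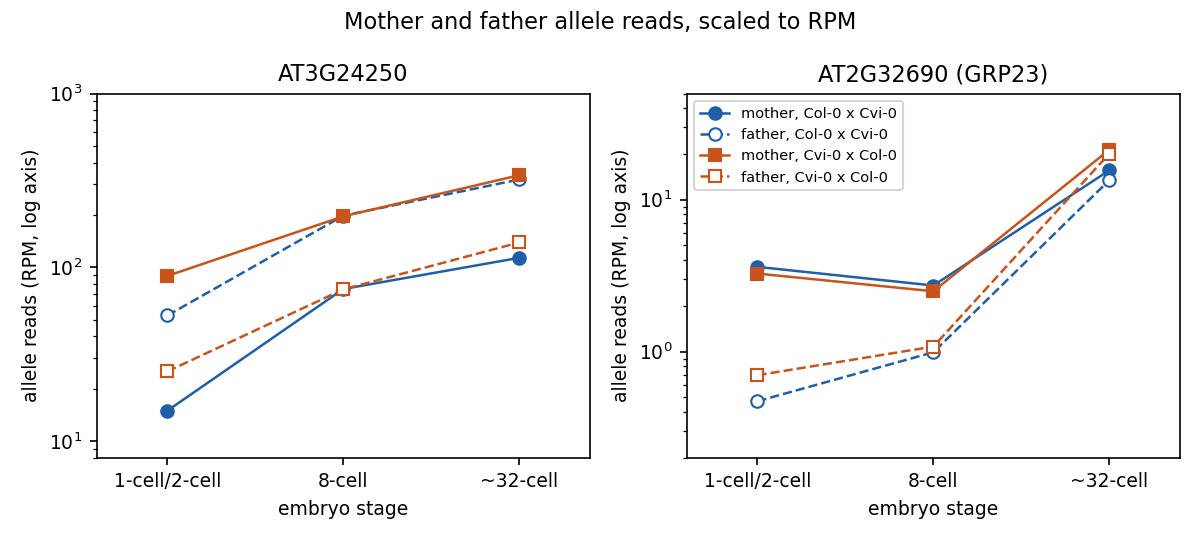
Allele reads of mother (filled, solid) and father (open, dashed) in RPM on log axes against embryo stage, coloured by cross, for AT3G24250 (left) and GRP23 (right). For AT3G24250 the upper pair of lines is the Cvi-0 allele in both crosses, and for GRP23 the upper pair is the mother until the lines meet at the 32-cell stage.

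The allele reads of GRP23 came from 6 variant positions, and 1 of them held 922 of 1364 reads counted per position (67.6%). At that position mother and father had 69 and 12 reads in the earliest embryos, 56 and 15 in 8-cell embryos and 423 and 347 in the latest, both crosses added. The next position had 10 and 3, 9 and 9, and 115 and 115 reads. Another pair of positions had 5 and 0 and 4 and 0 reads in the earliest embryos, and 17 and 33 and 44 and 54 in the latest. Summing reads over positions gave the same maternal share in all 6 libraries as the deposited tally per gene.

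Seed coat, a maternal tissue around the embryo, is given beside GRP23 through its marker genes. Their allele reads were 90.9% maternal (87.1 to 93.9), 95.3% (92.5 to 97.3) and 78.9% (75.8 to 81.7) over the stages. Most father reads came from single genes. TT6 held 22 of 27 in the earliest embryos, and TT1 held 12 of 16 in 8-cell embryos. In the latest TT6 held 160 of 163, beside 183 mother reads, so the lower share there rests on that gene. Their summed level was 63.0 and 57.6 RPM, then 62.0 and 81.2 RPM, then 61.7 and 149 RPM. Endosperm genes were 51.7% maternal (40.8 to 62.4), 45.9% (34.3 to 57.9) and 75.6% (65.4 to 84.0) over the stages. Egg cell genes were 53.1% maternal (45.1 to 61.0) in the earliest embryos, with all of those reads from EC1.5. Later they were 65.8% (48.6 to 80.4) and 49.2% (36.1 to 62.3). Embryo genes were 48.4% maternal (47.2 to 49.6) in the earliest embryos, then 46.5% (45.7 to 47.3) and 50.5% (49.9 to 51.0). In the earliest, PDF1 had 164 mother and 415 father reads, whereas LEC1 had 1370 and 1304. The part of seed coat RNA in the reads of GRP23 was not tested.

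Other genes of the class were then counted, from lists drawn by annotation and without the pair above. The first list held 71 genes named glycine-rich protein or GRP with a number, less those whose product name or symbol marks RNA binding. Names alone decided this, so proteins that bind RNA can remain on it. Proteins with little glycine stand on it too, such as those of AT1G27090 (10.5%), AT3G29075 (8.16%) and AT4G27850 (4.51%). The second held 9 glycine-rich RNA-binding protein genes, and the third 49 genes whose annotated protein is at least 30% glycine. The first list includes AT1G10270, a glutamine-rich protein gene that shares the symbol GRP23. With AT2G32690 counted, 27 genes stood on both the first and the third list, and GRP7 and CCR1 on both the second and the third. Together with the pair, 45 of 73 genes of the first list had reads. Per length of the annotated gene, introns included, AT3G24250 had the highest RPM of these 45 in all 6 libraries. On that scale GRP23 stood 20th to 22nd in the first 4 libraries and 5th and 6th at the 32-cell stage. By RPM alone GRP2 was above AT3G24250 in the earliest library with a Col-0 mother, at 1900 against 1022 RPM. GRP7 of the second list had 1954 and 2355 RPM in the earliest embryos, above AT3G24250 (1022 and 2089 RPM) in both crosses.

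Between the 1-cell/2-cell and 8-cell stages, 0 of 30 tested genes of the first list, 0 of 7 of the second and 1 of 17 of the third passed the test, against 1.1% of all 17478 genes (0.864% higher and 0.235% lower). At an unadjusted 0.05 the numbers were 4, 2 and 3, beside 2267 of all genes, and DESeq2 called 1, 1 and 2, beside 809. The gene that rose was AT4G29030, annotated as a putative membrane lipoprotein with 40% glycine. It had 5.43 and 15.5 RPM in the earliest embryos, 247 and 174 RPM in 8-cell embryos and 225 and 290 RPM in the latest. Its log2 change to the 8-cell stage was 4.60 ± 0.57 (SE, adjusted p = 0.0129, edgeR's quasi-likelihood test). The median log2 change was -0.17, -0.03 and -0.18 for the lists and 0.01 for all genes.

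Between the 8-cell and 32-cell stages edgeR called 0 genes of any list and 0 of all 17478 genes (0%), with 7, 0 and 4 list genes and 2064 of all genes at an unadjusted 0.05. DESeq2 called 2, 0 and 1, beside 643 of all genes. The lists' medians were -0.40, -0.10 and -0.44, against 0.01 for all genes. GRP23, with a log2 change of 3.17, lay above the highest of the other listed genes, which was 1.92.

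Between the 1-cell/2-cell and 32-cell stages the test called 7.78% of all genes, 4.18% higher and 3.6% lower. Of the first list 1 of 30 was higher and 1 lower, of the second 0 of 7 in either direction, and of the third 1 of 17 higher and 1 lower. Numbers at an unadjusted 0.05 were 9, 2 and 6, beside 4634 of all genes, and DESeq2 called 6, 2 and 6, beside 3006. AT4G21620, a glycine-rich protein gene of unstated function, rose from 16.5 and 12.7 RPM to 121 and 101 RPM (log2 3.07 ± 0.30 SE, edgeR adjusted p = 0.00285), with 32.7 and 25.2 RPM at the 8-cell stage. AT4G29030 rose too (log2 4.79 ± 0.56, edgeR adjusted p = 0.00461).

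On the other side AT4G08230 fell from 222 and 195 RPM to 38.5 and 85.6 RPM (log2 -1.73 ± 0.34 SE, edgeR adjusted p = 0.0259, and 0.153 without the 32-cell Col-0 x Cvi-0 library). RAB18, a dehydrin gene induced by abscisic acid, fell from 32.4 and 11.3 RPM to 1.11 and 0.30 RPM (log2 -4.75 ± 1.05, edgeR adjusted p = 0.0367, and 0.162 without the earliest library with a Col-0 mother). The list medians were -0.53, -0.18 and -0.76, against 0.00 for all genes.

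**Figure D4:**
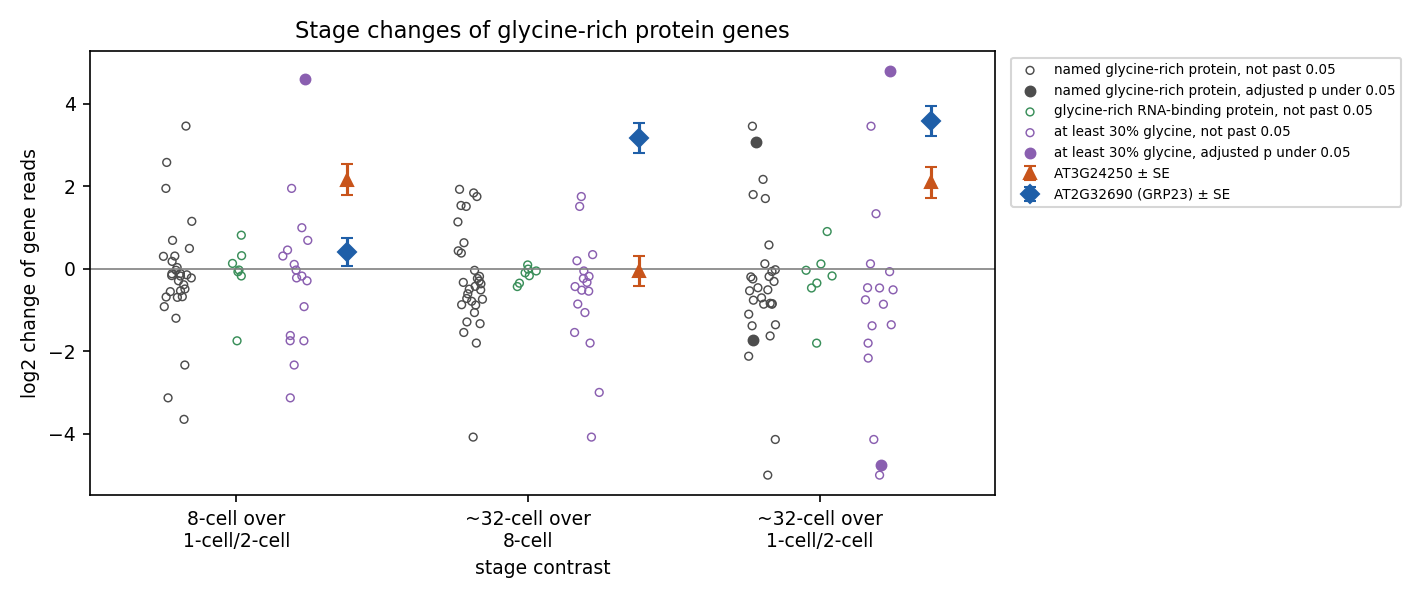
Log2 change of gene reads for each stage contrast in the 3 gene lists (points, filled where adjusted p was under 0.05) and in the pair AT3G24250 and GRP23 with SE bars. Genes that stand on the third list and on another appear on each. Called list genes are AT4G29030, AT4G21620, AT4G08230 and RAB18, and GRP23 lies above the listed genes from the 8-cell to the 32-cell stage.

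For the parents, 16, 3 and 6 genes of the lists had enough allele reads, out of 6988 in all. Over all stages edgeR called 0 of each list, against 0.129% of all genes, with 0 at an unadjusted 0.05 (301 of all genes) and 0 by DESeq2 (22 of all genes). Within single stages it also called 0 of each, against 0.143% of all genes in the earliest embryos (0.0859% toward the mother and 0.0572% toward the father), 0.1% in 8-cell embryos and 0.0429% in the latest. At an unadjusted 0.05 there was 1 gene of the first list in the earliest embryos, beside 406 of all genes, and 1 of the third in 8-cell embryos, beside 279. DESeq2 called 0 list genes at each stage, beside 7, 3 and 4 of all genes. The first list had a median log2 ratio of mother to father of 0.39 in the earliest embryos, 0.24 in 8-cell embryos and -0.09 in the latest. For the second list these were -0.01, 0.39 and 0.24, and for the third -0.07, -0.08 and 0.05, with all genes at 0.00, 0.02 and 0.01. The lists thus shared no course over the stages.

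For the accession of the allele, 20.5% of all genes were called, 13.7% higher from Col-0 and 6.81% higher from Cvi-0. Of the first list 1 of 16 was higher from Col-0 and 1 from Cvi-0, and of the second 2 of 3 were higher from Col-0. Of the third 2 of 6 were higher from Col-0 and 1 from Cvi-0, all of them also counted on the first or the second list. GR-RBP2, a glycine-rich RNA-binding protein gene, had 4611 reads from Col-0 and 1623 from Cvi-0 (log2 1.53 ± 0.15 SE, edgeR adjusted p = 9.16e-06). GRP2B had 1876 reads from Col-0 and 2671 from Cvi-0 (log2 -0.50 ± 0.10, edgeR adjusted p = 0.00332). AT2G30560 (2118 and 1632 reads, edgeR adjusted p = 0.0197) and CCR1, also known as GRP8 (202 and 97 reads, edgeR adjusted p = 0.0414), were called too. With TMM scaling of the allele columns these last 2 were not called (adjusted p = 0.0991 and 0.0631 in edgeR), and AT2G30560 was lost without any of 3 libraries and CCR1 without any of 5 (adjusted p up to 0.0955 and 0.178).

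The most abundant other genes of the first list were GRP2, a cold shock domain protein gene (1185 to 1900 RPM), AT1G27090 (60.7 to 204 RPM, 10.5% glycine) and GRP2B (103 to 177 RPM). None of the 3 passed the stage tests. GRP5, which the annotation names as the structural relative of GRP23 and which was chosen after its values were seen, had 19.3 and 20.7 RPM, then 17.3 and 10.7 RPM, then 3.38 and 29.1 RPM. It did not share the step of GRP23 at the 32-cell stage in the Col-0 x Cvi-0 library.

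Genes most like each of the pair in pattern were ranked by Pearson's r of log2(RPM + 0.5) over the 6 libraries among 16950 genes, as a description. For AT3G24250 the first 5 were AT3G05980 (r = 0.995), the overlapping loci AT5G60548 and GRIK2 with identical reads (0.995), PDF2 (0.992) and AXR4 (0.991). Such an r leaves out the size of a change. GRIK2 had 11.2 to 17.1 RPM over the libraries, AXR4 31.8 to 68.2 RPM and AT3G05980 0.315 to 8.17 RPM. AT3G24250 itself had 1022 to 7858 RPM. PDF2 is a homeodomain transcription factor of the epidermis, GRIK2 a kinase, and AXR4 is needed for placement of the auxin carrier AUX1. PDF2 had 74.7 and 112 RPM, then 305 and 313 RPM, then 245 and 434 RPM, higher with a Cvi-0 mother at each stage, whereas AT3G24250 was lower with a Cvi-0 mother in 8-cell embryos. For GRP23 they were AT5G60400, HYH, GRF4, DOF2 and ACR7 (r = 0.994 to 0.995). HYH is a bZIP factor related to HY5, GRF4 a growth-regulating factor and DOF2 a zinc finger factor, and HYH, with 0 reads in 3 of the 4 earlier libraries and 0.135 RPM in the other, had 1.92 RPM or more in both libraries of the latest embryos. These low levels make r depend on few reads.

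Chromosomal neighbours had low levels. Beside AT3G24250, the receptor-like kinase gene AT3G24240 had 2.05 to 5.95 RPM and AT3G24255 8.78 to 22.0 RPM. Beside GRP23, RLP23, a receptor-like protein gene, had 5.90 and 9.01 RPM, then 9.41 and 21.0 RPM, then 0.553 and 4.32 RPM, and the microRNA gene MIR407 was at 0 in all 6 libraries. RLP23 was thus lower at the 32-cell stage, where GRP23 was high, than at the other stages in each cross.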

How the data were processed

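Poly(A) RNA of 6 embryo pools was analysed, 1 for each stage and cross. Per the series' design text, the authors amplified RNA linearly, mapped reads with Bowtie (build TAIR10, per the submitters' processing notes) to Col-0 and to a Cvi-0 version of genome and transcripts, and kept perfect, unique matches. The Bowtie version is not given in the sources used here. Perfect matching can lose reads of an allele that carries an unlisted variant. The deposited values are allele read counts per gene, estimated counts of reads per gene in steps of 0.5, and RPM, scaled by the authors to mapped reads. Reads by variant come from text columns, per the file headers. The other 30 deposited columns were not used. A gene with no entry in a library was taken as 0.

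Rounded gene reads were fitted for stage and cross by glmQLFit after filterByExpr and TMM scaling (edgeR 4.0.16 and limma 3.58.1 under R 4.3.3). Allele counts, where their mean per library reached 10, were fitted for library, allele genotype and parent. Residual degrees of freedom were 2 for stages, 4 for parent and genotype and 2 for parent within stage. P-values (Benjamini-Hochberg over all genes, threshold 0.05) rest on residual spread, since no sample was repeated. The scripts were tested on simulated data. DESeq2 1.42.0 was an alternative. Intervals were computed in SciPy 1.17.1, alignment in Biopython 1.88. Genes were matched to TAIR10.1, whose nuclear chromosomes are taken as those of TAIR10 (23747 of 23874). Glycine shares are from the translated longest coding sequence.

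Members and lists were chosen with earlier results of these data known. Named genes are the pair, called list genes (at most 5 per fit), the 3 most abundant of the first list, the 5 most alike and 1 neighbour on each side.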

Additional observations from a re-analysis of the deposited data

Results flagged for a closer look

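The parental shares of AT3G24250 lay on opposite sides of 50% in the reciprocal crosses at each stage. The mother's share was 22.1%, 27.4% and 26.2% with a Col-0 mother from the earliest to the latest stage, and with a Cvi-0 mother it was 78.0%, 72.5% and 70.9%. All of these reads came from 1 variant position. Read by accession, the same counts are the Cvi-0 shares given above, 70.9% to 78.0% in the 6 libraries, and not a separate result. The difference between the crosses in the mother's share was not tested.

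The level of AT3G24250 moved from the 8-cell to the 32-cell stage in opposite directions in the crosses, to 0.708 times with a Col-0 mother and 1.43 times with a Cvi-0 mother. With 1 library for each stage and cross this difference was not tested.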

How the results depend on the processing

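The courses of both genes kept their direction under the other scalings and tools, except that the log2 change of AT3G24250 from the 8-cell to the 32-cell stage was -0.07 with and 0.01 without cross as a term. DESeq2 called 809, 643 and 3006 genes in the stage contrasts (8-cell over 1-cell/2-cell, 32-cell over 8-cell, 32-cell over 1-cell/2-cell) where edgeR called 192, 0 and 1360, and 488, 312 and 2209 were called without a filter on low counts. It called 22 genes for the parents over all stages, where edgeR called 9, and 3 at the 8-cell stage, where edgeR called 7. A minimum of 5 allele reads gave 25, 23 and 11 genes for the parents at the 3 stages, where the minimum of 10 gave 10, 7 and 3. With TMM over the allele columns the Col-0 to Cvi-0 log2 ratio of AT3G24250 was -1.65. As TMM-scaled CPM over gene reads, the mean of AT3G24250 at the 8-cell stage was 6980 and that of GRP23 at the 32-cell stage 74.5. The causes were not tested.

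With each library left out in turn, the calls ranged from 106 to 673, 0 to 697 and 787 to 2188 in the stage contrasts. The lowest of the first and the third came without the 8-cell library with a Cvi-0 mother and the 32-cell one with a Col-0 mother. The highest of the first and the second came without the 32-cell library with a Cvi-0 mother, and that of the third without the 1-cell/2-cell one with a Cvi-0 mother. For the parents they ranged from 4 (without the 32-cell library with a Cvi-0 mother) to 12 over all stages, and from 1 to 20, 0 to 19 and 4 to 14 at single stages, with each of these highest values without the 32-cell library with a Cvi-0 mother. The lowest came without the 8-cell libraries, that with a Cvi-0 mother for the 1-cell/2-cell stage, that with a Col-0 mother for the 8-cell stage and either for the 32-cell stage. For the genotype they ranged from 1009 to 1290. The log2 stage changes of AT3G24250 ranged from 1.52 to 2.76, -0.62 to 0.61 and 1.69 to 2.61, and those of GRP23 from 0.15 to 0.72, 2.86 to 3.44 and 3.28 to 3.87. The mother to father log2 ratio of AT3G24250 ranged from -0.11 to 0.02 over all stages, and from -0.42 to 0.43, -0.20 to 0.20 and -0.32 to 0.11 at single stages. That of GRP23 ranged from 0.77 to 1.53 over all stages, and from 2.29 to 2.83, 1.296 to 1.36 and -0.01 to 0.31. The Col-0 to Cvi-0 ratio ranged from -1.59 to -1.45 for AT3G24250 and from -0.20 to 0.59 for GRP23.

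With each library left out, calls in the 3 lists of glycine-rich genes ranged from 0 to 1, 0 to 1 and 1 to 2 between the first stages, where the full fit had 0, 0 and 1. They ranged from 0 to 3, 0 to 0 and 0 to 1 between the later stages, and from 1 to 5, 1 to 1 and 2 to 6 between the first and the last (full fit 2, 0 and 2). For the genotype they ranged from 1 to 3, 1 to 2 and 1 to 3 (full fit 2, 2 and 3). DESeq2 gave 1, 1 and 2, then 2, 0 and 1, then 6, 2 and 6 in the stage contrasts. Without the filter on low counts these were 0, 0 and 1, then 1, 0 and 0, then 3, 1 and 5. TMM over allele columns gave 1 in each list for the genotype. At a minimum of 40% glycine, 1 gene was called between the first and the last stage and 1 for the genotype. For the parents, 0 list genes were called under every alternative run.

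The labels give no replicate numbers to pair, but the stage fit holds cross and the allele fit holds library as a term. Depth limits GRP23 before the 32-cell stage, with 45 to 53 allele reads per library.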
